A study of Mus musculus with 6 samples.

Results

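The 32 sterol and fatty acid synthesis genes described here were picked by symbol from 24421 listed genes, with earlier results of these data known. They hold enzymes of the mevalonate and cholesterol pathway, enzymes of fatty acid synthesis, the SREBP transcription factors with their partners in the endoplasmic reticulum, and 4 genes of sterol transport, sterol storage and related lipid metabolism. All 32 were listed, and all 32 had enough counts for testing. RNA was measured in primary liver sinusoidal endothelial cells, the fenestrated endothelium of the hepatic sinusoid, from mice labelled with the genotype wild. In both groups hepatocytes were spun out at low speed, dead cells and erythrocytes were removed on a density gradient, cells were picked with beads against CD146, kept on collagen I overnight and starved of serum for 6 h. The pressure group (3 samples) was then loaded for 8 h with hydrostatic pressure, in cycles of 0.01 Hz from 101 kPa up to 135 kPa (absolute), and 3 samples were controls. How long and under what handling the controls were kept over those 8 h is not labelled, so handling and pressure cannot be told apart. All 6 samples carry the same batch label. Nor is it labelled whether replicates are separate cultures or animals, so p-values cover the spread between these 6 samples alone, and that spread may be technical.

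Cholesterol is built from acetyl-CoA through the mevalonate arm, which ends in farnesyl diphosphate, and then through squalene and lanosterol by a chain of enzymes of the endoplasmic reticulum. Fatty acids start from the same acetyl-CoA, which is carboxylated, joined into palmitate, elongated and desaturated. When membrane sterol falls, SCAP carries the SREBP precursors to the Golgi, where they are cleaved into transcription factors for both pathways, and the INSIG proteins hold SCAP back when sterol is plentiful. The endothelium of the liver sinusoid takes up modified lipoproteins by scavenger receptors and so handles sterol that it did not make.

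Library totals lay between 12922959 and 18655749 counts. The lowest total was that of pressure replicate 3, where pressure replicates 1 and 2 had 17659684 and 17675569. Levels are given as CPM, the standard depth-normalised read count, here after scaling of the library sizes with TMM factors, always in the order of replicates 1, 2 and 3. Replicate 3 of the pressure group differed from the other libraries of its group: its log CPM correlated with theirs at 0.987 and 0.989, where they correlated with each other at 0.994. Endothelial markers were present in every library, with a summed level over 12 genes of 7261 to 7801 CPM in controls and 5507 to 6659 CPM under pressure (8 lower, and 1 higher, Mcam, which encodes CD146). Markers of Kupffer cells, the liver's macrophages, were abundant too, at 5284 to 5772 CPM in controls and 5048 to 5516 CPM under pressure over 10 listed genes (2 higher and 2 lower), with Cd5l and Marco at the top. Hepatocyte markers, led by Trf and Alb, summed to 29.9 to 37.2 CPM in controls and 46.1 to 52.6 CPM under pressure. Of these 12 genes, 9 were below 1 CPM in every library and 5 could be tested, with 3 higher and 0 lower. Stellate cell markers summed to 170 to 183 CPM in controls and 184 to 206 CPM under pressure (2 higher and 1 lower of 9 tested). The part of these other cells in the changes below was not tested. In such bulk samples, fewer cells of a type and less RNA per cell cannot be told apart.

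Members of the sterol and fatty acid pathways moved in both directions under pressure. Of the 32 genes, 8 were higher and 11 were lower at an adjusted p under 0.05 in edgeR's quasi-likelihood test, and 13 did not pass. Over all 12892 genes tested, 68.8% passed, 33.7% higher and 35.1% lower, so the members' 59.4% lay below the background. At least 2-fold changes were found for 3 members (Mvd, Tm7sf2 and Soat1, all lower), against 23.3% of all genes. The 3 pressure values lay all above the controls for 8 members and all below them for 11, which are the same 19 genes that passed, where 71.9% of all genes had groups that did not overlap. The median log2 fold change (pressure over control) was -0.064 over the members and -0.015 over all genes. For 11 of the 13 members that did not pass, the 95% interval of the log2 change lay within 0.5 of 0, and for Pmvk and Fasn it reached further. Some members passed with changes smaller than that bound, such as Sqle (0.44) and Insig2 (-0.34). An interval within it therefore does not exclude a change of their size.

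**Figure D1:**
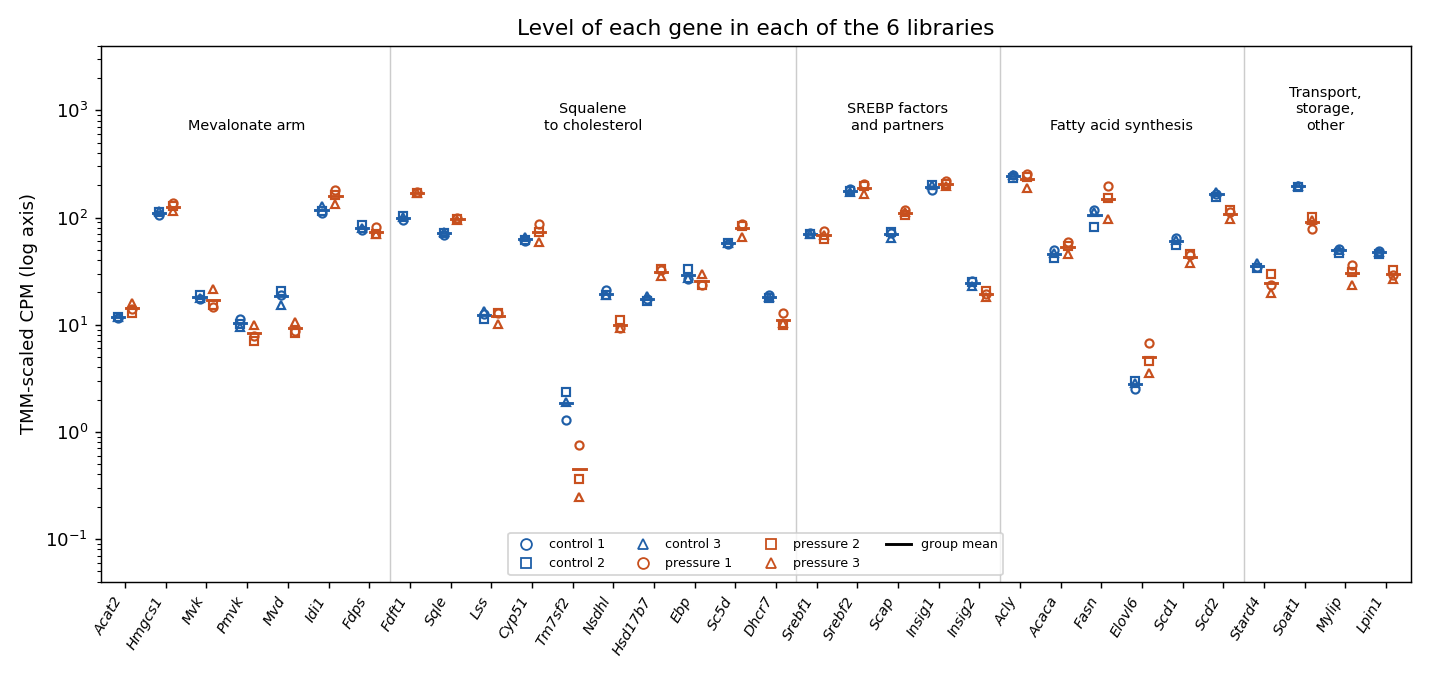
TMM-scaled CPM (log axis) of the 32 genes in each of the 6 libraries, grouped by role, with controls in blue, pressure in orange, a marker shape for each replicate and a bar for the group mean. Tm7sf2 and Elovl6 were the lowest members in all libraries, at up to 2.35 and 6.79 CPM.

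Control levels per kilobase of exon spanned the range from 62.7 CPM per kb for Insig1 to 0.421 CPM per kb for Tm7sf2. Insig1 encodes the sterol-sensing retention protein that SREBP itself induces. On the same scale, Acly (ATP citrate lyase, which makes cytosolic acetyl-CoA) stood at 46.3, Idi1 at 33.8, Scd2 at 30.1, Srebf2 at 24.7, Hmgcs1 at 24.2, Fdft1 at 23.7 and Soat1 at 20.0 CPM per kb. At the low end were Lss with 1.15, Elovl6 with 0.432 and Tm7sf2. Lss encodes lanosterol synthase, which closes the sterol rings. Lengths are the union of annotated exons, so a gene of which these cells use only short transcripts is understated.

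**Figure D2:**
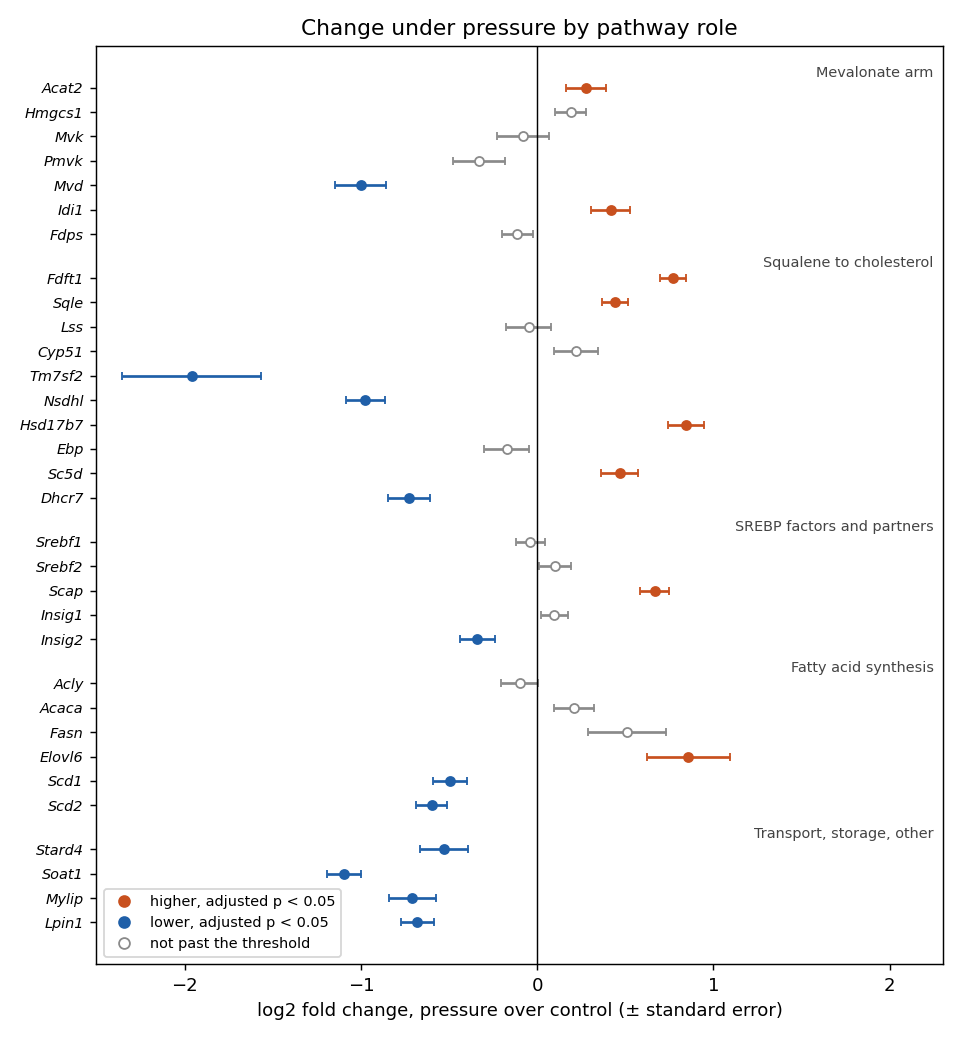
Log2 fold change of each gene, pressure over control, with its standard error, ordered by pathway role and coloured by the call at an adjusted p of 0.05. Higher and lower genes are interspersed along the sterol pathway, and the 4 transport and storage genes all lie below 0.

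In the mevalonate arm, 2 of 7 genes were higher (Acat2 and Idi1), 1 was lower (Mvd) and 4 did not pass. The median log2 change was -0.080. Mvd, the decarboxylase that turns mevalonate diphosphate into isopentenyl diphosphate, stood at 19.0, 20.7 and 15.3 CPM in controls and at 8.72, 8.39 and 10.6 CPM under pressure. Every pressure library lay below every control, and the level fell 2-fold (log2 fold change -1.0 ± 0.14, adjusted p = 0.000117 in edgeR). The next enzyme in order, the isomerase Idi1, moved the other way, from 109.5, 116 and 129 CPM to 179, 161 and 134 CPM. Its lowest pressure value was close to its highest control value, and the rise was 1.34-fold (0.42 ± 0.11, adjusted p = 0.00615 in edgeR). With library totals as the only scaling, the log2 change of Idi1 was 0.20 with an adjusted p of 0.105.

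Acat2, the cytosolic thiolase that condenses acetyl-CoA at the head of the pathway, had 11.5, 11.8 and 11.8 CPM in controls and 14.1, 12.8 and 15.8 CPM under pressure (0.28 ± 0.11, adjusted p = 0.0497 in edgeR). That call sat at the threshold and was lost in 14 of 16 alternative settings. Hmgcs1, the synthase that makes HMG-CoA, measured 105, 114 and 115 CPM in controls and 138, 127 and 115 CPM under pressure (0.19 ± 0.087, adjusted p = 0.0744 in edgeR). Replicate 3 of the pressure group lay among the controls for Hmgcs1, the other pressure libraries above them. The mevalonate kinase Mvk had 17.3, 18.8 and 17.8 CPM in controls and 14.5, 15.2 and 21.7 CPM under pressure, so that 2 pressure libraries were below all controls and the third above them (adjusted p = 0.641 in edgeR). Phosphomevalonate kinase, Pmvk, had 11.2, 10.1 and 9.51 CPM in controls and 7.79, 7.11 and 9.99 CPM under pressure (-0.33 ± 0.15, adjusted p = 0.0681 in edgeR). For Pmvk too, replicate 3 lay among the controls and the other pressure libraries below them. Farnesyl diphosphate synthase, Fdps, at the end of the arm, had 75.9, 84.7 and 79.9 CPM in controls and 81.3, 70.6 and 70.4 CPM under pressure, and the groups overlapped (-0.11 ± 0.087, adjusted p = 0.268 in edgeR). Of the exonic length of Fdps, 26.7% overlaps another annotated gene on the same strand, Gm43738, whose reads were not analysed here. On the opposite strand, such genes overlap 12.1% of Hmgcs1 (Gm48342) and 9.22% of Idi1 (Gm48574), by exonic length.

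From squalene to cholesterol, 4 of 10 enzymes were higher, 3 were lower and 3 did not pass, with a median log2 change of 0.087. The first committed enzymes rose. Squalene synthase, Fdft1, which joins farnesyl units into squalene, had 94.8, 105 and 101 CPM in controls and 174, 169.8 and 168 CPM under pressure. The pressure libraries were tightly grouped and all far above the controls, a 1.71-fold rise (0.77 ± 0.073, adjusted p = 6.35e-06 in edgeR). Squalene epoxidase, Sqle, rose 1.36-fold, from 68.0, 72.0 and 73.2 CPM to 98.1, 96.5 and 94.6 CPM, again without overlap (0.44 ± 0.073, adjusted p = 0.000326 in edgeR). The end of Fdft1 overlaps the cathepsin gene Ctsb on the opposite strand over 774 bp, or 18.3% of its exonic length. Ctsb measured 10654 ± 214 CPM in controls and 11925 ± 270.0 CPM under pressure (SD, n = 3), a log2 change of 0.16. Its reads could enter the Fdft1 value if strand was ignored in counting, which the sources used here do not give.

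After ring closure the values were mixed. Lanosterol synthase, Lss, had 12.7, 11.3 and 13.3 CPM in controls and 13.0, 12.8 and 10.2 CPM under pressure (adjusted p = 0.753 in edgeR). The lanosterol demethylase Cyp51 had 61.0, 61.3 and 66.1 CPM in controls and 86.7, 74.0 and 58.6 CPM under pressure, with replicates 1 and 2 above all controls and replicate 3 below them (0.22 ± 0.12, adjusted p = 0.135 in edgeR). Tm7sf2, a sterol reductase of the step after Cyp51, had the largest fall of the 32 genes, on few reads. Its deposited counts were 26.5, 43.5 and 29 in controls and 12, 6 and 3 under pressure, or 1.30, 2.35 and 1.92 CPM and 0.748, 0.365 and 0.246 CPM, which gave a 3.89-fold fall with a wide error (-1.96 ± 0.40, adjusted p = 0.00119 in edgeR). Of its exonic length, 12.1% is shared with Vps51 on the same strand, whose log2 change was -0.22 (adjusted p = 0.09 in edgeR). Lbr, the lamin B receptor, which carries the same reductase activity, was the more abundant of the pair with 71.7, 68.9 and 74.1 CPM in controls and 77.8, 81.1 and 75.4 CPM under pressure. The pressure values of Lbr all lay above the controls, but it did not pass (0.13 ± 0.075, adjusted p = 0.154 in edgeR). Lbr and Msmo1 were singled out after their values were seen, because they act beside members.

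Removal of the methyl groups at carbon C4 of the sterol is done by MSMO1, NSDHL and HSD17B7 in turn, and of these 3 genes 1 did not pass, 1 fell and 1 rose. Msmo1, the methyl oxidase, had 104, 113 and 116 CPM in controls and 109.9, 117 and 117 CPM under pressure (adjusted p = 0.643 in edgeR). Nsdhl, the decarboxylating dehydrogenase, fell 1.96-fold from 20.9, 18.9 and 18.8 CPM to 9.35, 11 and 9.42 CPM (-0.97 ± 0.11, adjusted p = 2.50e-05 in edgeR). Hsd17b7, the ketoreductase that completes the cycle, rose 1.8-fold from 17.4, 16.5 and 18.6 CPM to 32.2, 33.1 and 28.7 CPM (0.84 ± 0.10, adjusted p = 3.03e-05 in edgeR). In neither of the last genes did any pressure library reach the range of the controls, and both calls held in all 16 alternative settings.

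The last members of the chain also parted. The isomerase Ebp had 26.4, 33.1 and 27.1 CPM in controls and 23.5, 23.7 and 29.9 CPM under pressure, with overlap (-0.17 ± 0.13, adjusted p = 0.245 in edgeR). Sc5d, the lathosterol desaturase, rose from 56.4, 57.7 and 58.1 CPM to 87.7, 83.4 and 66.6 CPM (1.38-fold, 0.47 ± 0.10, adjusted p = 0.00211 in edgeR). Dhcr7, the reductase that acts on the product of Sc5d, fell from 19.0, 17.7 and 18.2 CPM to 12.8, 9.85 and 10.4 CPM (1.66-fold, -0.73 ± 0.12, adjusted p = 0.000327 in edgeR). Over the 17 sterol enzymes of both arms, 6 were higher and 4 lower with a median of -0.048. With library totals as the only scaling, 4 were higher and 7 lower, where 24.3% of all genes were higher and 45.7% lower, so this scaling moved all genes towards lower values and not these enzymes alone.

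In GRCm38, the build also named mm10, with the GENCODE M21 annotation, Fdft1 lies on chromosome 14, 63145150 to 63179578, Hsd17b7 on chromosome 1, 169949535 to 169969241, Nsdhl on chromosome X, 72918557 to 72958514, Mvd on chromosome 8, 122433601 to 122443422 and Soat1 on chromosome 1, 156424525 to 156474331. The annotation calls all 32 genes protein-coding. Each span runs over the whole gene, with its introns and untranslated ends.

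Among the SREBP factors and their partners, 1 of 5 genes rose, 1 fell and 3 did not pass, with a median of 0.098. The factors themselves did not pass. Srebf1, which mainly drives fatty acid genes, had 71.7, 70.6 and 70.3 CPM in controls and 74.4, 63.7 and 68.9 CPM under pressure, with a log2 change of -0.04 ± 0.081 (95% interval -0.22 to 0.14, adjusted p = 0.684 in edgeR). Srebf2, the main driver of sterol genes, had 186, 176 and 172 CPM in controls and 206, 199 and 166 CPM under pressure (0.10 ± 0.091, 95% interval -0.10 to 0.30, adjusted p = 0.344 in edgeR). In both genes the pressure values lay on either side of the controls. Scap, the escort of the SREBP precursors, rose 1.59-fold from 71.7, 73.7 and 65.1 CPM to 117, 105 and 112 CPM (0.67 ± 0.082, adjusted p = 3.94e-05 in edgeR). The annotated gene 5830462I19Rik overlaps 13.2% of the exonic length of Scap on the opposite strand and was not analysed here.

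Of the INSIG genes, Insig2 passed and Insig1 did not. Insig1 had 181, 201 and 199.9 CPM in controls and 219, 208 and 196 CPM under pressure, with overlap (0.10 ± 0.077, adjusted p = 0.276 in edgeR). Insig2 fell 1.27-fold from 25.6, 25.1 and 23.2 CPM to 19.3, 20.8 and 18.2 CPM (-0.34 ± 0.098, adjusted p = 0.00991 in edgeR). The ratio of counts within a library does not depend on the scaling between libraries. The log2 ratio of Insig1 to Insig2 was 2.82, 3.00 and 3.10 in controls and 3.50, 3.31 and 3.43 under pressure, a difference of 0.44 without overlap. An exact two-sided permutation test gave p = 0.1, the smallest that 3 against 3 samples can give, and 0.15 after adjustment over the 3 ratios tested. For Srebf1 to Srebf2 the log2 ratio was -1.33 ± 0.043 in controls and -1.46 ± 0.19 under pressure (SD, n = 3, exact permutation p = 0.4, adjusted 0.4).

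The stretches before the start of 3 genes are shown because SREBPs act at such sites together with the factors NF-Y and SP1, and because Hsd17b7 and Nsdhl, neighbours in the pathway, moved in opposite directions (this pair was chosen after its values were seen). They are RefSeq sequences on GRCm38.p6, read 5′ to 3′ on the strand of the gene. Capitals mark the match to the sterol regulatory element TCACNCCAC in Hmgcs1 at chr13:119690101-119690300 on the plus strand, and the NF-Y box CCAAT in the other stretches, at chr1:169969256-169969455 on the minus strand for Hsd17b7 and chrX:72918271-72918470 on the plus strand for Nsdhl. There the box lies on the opposite strand and is read as ATTGG.
Hmgcs1: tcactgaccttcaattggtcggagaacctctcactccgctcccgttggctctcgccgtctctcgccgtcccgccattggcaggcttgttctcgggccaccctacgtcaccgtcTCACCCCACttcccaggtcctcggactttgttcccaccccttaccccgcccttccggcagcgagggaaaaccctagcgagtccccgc
Hsd17b7: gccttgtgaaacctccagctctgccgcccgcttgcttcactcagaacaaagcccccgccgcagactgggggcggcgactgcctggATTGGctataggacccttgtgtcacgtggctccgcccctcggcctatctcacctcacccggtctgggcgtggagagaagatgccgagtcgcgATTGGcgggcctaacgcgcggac
Nsdhl: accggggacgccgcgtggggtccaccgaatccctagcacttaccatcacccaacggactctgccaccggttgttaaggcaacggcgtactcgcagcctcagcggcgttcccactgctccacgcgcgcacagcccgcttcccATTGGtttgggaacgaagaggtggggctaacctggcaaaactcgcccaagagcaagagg
The box appears 2 times in the Hsd17b7 stretch and 1 time in that of Nsdhl. Over the whole promoters of 300 bases the order turns round, with 3 matches for Hsd17b7 and 4 for Nsdhl, so the counts do not separate the pair.

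RefSeq promoters, from 250 bases before to 50 bases after the start, were matched for 26 of the 32 genes. None was matched for Fdps, Fdft1, Sqle, Scd1, Scd2 and Stard4, so these are missing from the counts below, also from those by direction. Both strands were searched for 3 motifs, and no match overlapped a match of another motif in the members. The sterol regulatory element as written above was in the promoter of 1 of the 26 genes (3.85%, Hmgcs1, starting 137 bases before the start) and in 1.44% of 27025 genes in the table. CCAAT was in 21 of the 26 (80.8%) against 41.1% of all genes, and the SP1 box GGGCGG was also in 21 (80.8%) against 38.2%. A gene counted if any of its promoters matched. Per promoter the shares were 64.7% against 37.4% for CCAAT and 73.5% against 35.7% for GGGCGG. The set of all genes was not limited to genes tested here, as the members were, so the sets are unlike. By direction, CCAAT was found in 3 of 6 matched genes that were higher, in 7 of 8 that were lower and in 11 of 12 that did not pass. GGGCGG was found in 5 of 6, 7 of 8 and 9 of 12. A match is a string of letters in a window and not a measured binding site.

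For fatty acid synthesis, 1 of 6 genes rose (Elovl6), 2 fell (Scd1 and Scd2) and 3 did not pass, with a median of 0.055. The enzymes that make palmitate did not pass. Acly had 251, 233 and 249.7 CPM in controls and 256, 239 and 189 CPM under pressure (-0.10 ± 0.11, adjusted p = 0.416 in edgeR). Acaca, the carboxylase that makes malonyl-CoA, had 49.7, 41.6 and 46.8 CPM in controls and 59.1, 54.8 and 45.4 CPM under pressure (0.21 ± 0.11, adjusted p = 0.117 in edgeR). Fatty acid synthase, Fasn, was the most scattered of the abundant members, at 119, 82.0 and 114 CPM in controls and 197, 153 and 96.7 CPM under pressure. Pressure replicates 1 and 2 lay above all controls and replicate 3 between them (0.51 ± 0.22, adjusted p = 0.0588 in edgeR). Without pressure replicate 3 its log2 change was 0.74 with an adjusted p of 3.20e-07.

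Among the members that elongate or desaturate the palmitate chain, Elovl6 rose, and Scd1 and Scd2 fell. Elovl6, the elongase that makes stearate from palmitate, was low, at 2.50, 2.99 and 2.84 CPM in controls and 6.79, 4.56 and 3.52 CPM under pressure. It rose 1.81-fold (0.86 ± 0.24, adjusted p = 0.00779 in edgeR), and its 3 pressure values were spread but all above the controls. Scd1 and Scd2 encode stearoyl-CoA desaturases, which put the first double bond into the chain. Scd1 fell 1.41-fold from 63.8, 55.9 and 61.7 CPM to 44.4, 46.1 and 37.9 CPM (-0.50 ± 0.097, adjusted p = 0.00099 in edgeR). Scd2, the more abundant in every library, fell 1.51-fold from 165, 156 and 172 CPM to 112, 117 and 97.3 CPM (-0.60 ± 0.087, adjusted p = 0.000131 in edgeR). Per kilobase of exon, Scd2 stood at 30.1 and Scd1 at 12.4 CPM in controls. Both carried fractional counts, which can come from reads shared between near-identical sequences, so the split of reads between them is uncertain. The log2 ratio of Scd1 to Scd2 went from -1.44 ± 0.062 in controls to -1.34 ± 0.012 under pressure (SD, n = 3), a difference of 0.10 (exact permutation p = 0.1, adjusted 0.15).

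All 4 genes of sterol transport, storage and related lipid handling fell (median log2 change -0.69), where 35.1% of all genes were lower. These 4 genes stayed lower in all 4 scalings of the libraries that were tried. Soat1, which esterifies cholesterol for storage in droplets, had 198, 193 and 197 CPM in controls and 78.9, 102 and 94.5 CPM under pressure. No pressure library came near the controls, and the level fell 2.13-fold (-1.09 ± 0.096, adjusted p = 3.74e-06 in edgeR). It was the most abundant of the 3 genes that changed at least 2-fold.

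Lpin1, a phosphatidate phosphatase of glycerolipid synthesis, fell 1.6-fold from 48.7, 46.1 and 47.3 CPM to 29.2, 32.3 and 26.9 CPM (-0.68 ± 0.092, adjusted p = 7.92e-05 in edgeR). Mylip encodes a ubiquitin ligase that is induced by the sterol-sensing receptor LXR and marks lipoprotein receptors for degradation. It stood at 51.1, 46.9 and 50.3 CPM in controls and 36.1, 30.9 and 23.4 CPM under pressure, a 1.63-fold fall (-0.71 ± 0.14, adjusted p = 0.000844 in edgeR). Stard4, a carrier of cholesterol between membranes, fell 1.44-fold from 34.4, 33.9 and 37.7 CPM to 23.5, 29.9 and 19.8 CPM (-0.53 ± 0.14, adjusted p = 0.00547 in edgeR). The pressure values of Mylip and Stard4 were more spread than their controls, yet none reached the control range.

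Pressure replicate 3 was the lowest pressure library for 22 of 32 members (68.8%), for all 6 fatty acid genes and for 10 of 17 sterol enzymes, and for 39.6% of all genes tested. Without that library, 12 members were higher and 14 lower, against 36.4% and 37.8% of 13125 genes. The genes that then passed as higher were Hmgcs1 (0.26, adjusted p = 0.0023), Cyp51 (0.36, 2.16e-04), Srebf2 (0.19, 0.0134), Acaca (0.31, 0.00193) and Fasn, and those that passed as lower were Mvk (-0.27, 0.0253), Pmvk (-0.47, 0.00355) and Ebp (-0.29, 0.0141), all in edgeR with adjusted p. Acat2 then missed the threshold (0.20, adjusted p = 0.125). In the fatty acid group this gave 3 higher and 2 lower genes. In the mixed sterol enzymes it gave 7 higher and 7 lower, so they stayed divided without that library.

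**Figure D3:**
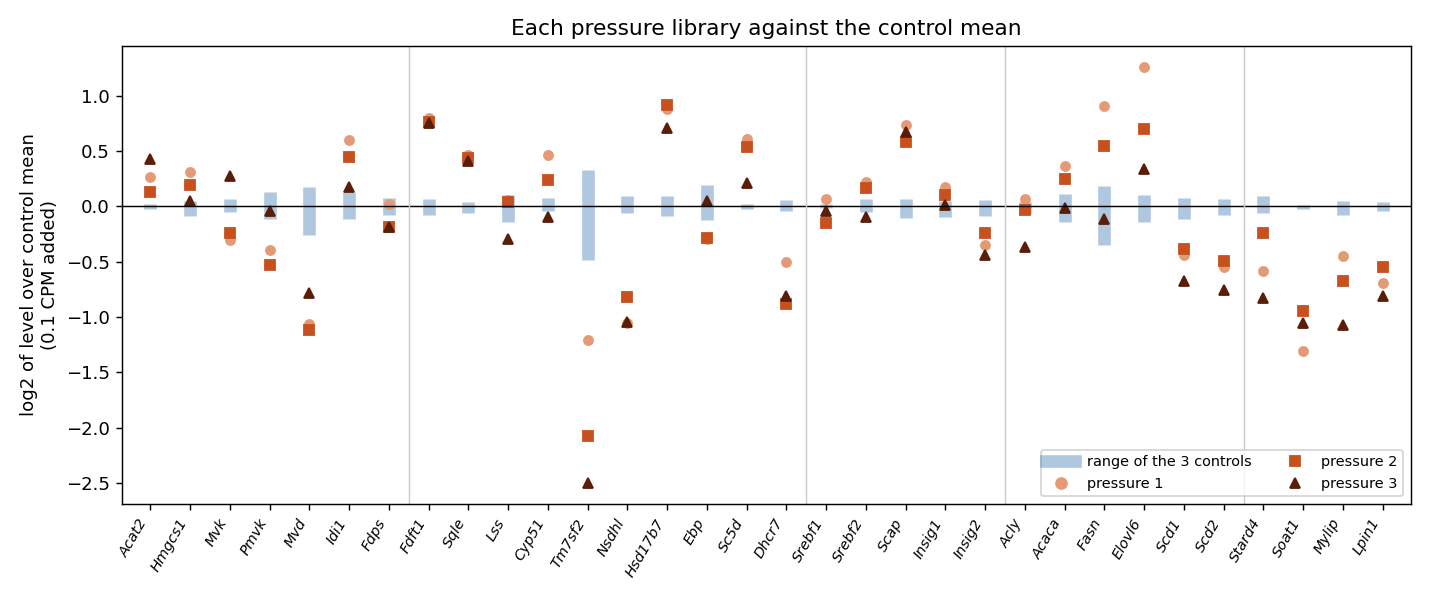
Log2 of each pressure library's CPM over the control mean (0.1 CPM added) for the 32 genes, with the range of the 3 controls as a blue band and vertical lines between the groups of genes. Pressure replicate 3 (dark triangles) was the lowest of the 3 for all 6 fatty acid genes, and its Fasn value fell within the control range.

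The counts of higher and lower members depended on how the libraries were scaled. With library totals alone, 6 members were higher and 16 lower, against the same shares of all genes as above, and the median log2 change of all genes shifted by -0.213. Idi1 and Acat2 lost their calls there, and Pmvk, Fdps, Ebp, Srebf1 and Acly passed as lower. With upper-quartile factors the shift was -0.114, with 7 members higher and 13 lower, against 28.1% and 40.2% of all genes. The members' shares lay near those of all genes in both settings. The 1.5-fold test, which asks for a change beyond that size, left 3941 of all 12892 genes. Of the 32 members it left 6: Fdft1 and Hsd17b7 higher, and Mvd, Nsdhl, Tm7sf2 and Soat1 lower. These 6 passed in every setting that tested them.

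Genes that supply, process or use the products of these pathways were taken from 5 further lists. Between 68.4% and 84.2% of the tested genes of a list passed, against 68.8% of all genes (33.7% higher and 35.1% lower). With library totals alone, 24.3% of all genes were higher and 45.7% lower. Of 12 genes of SREBP processing and sterol-regulated degradation in the endoplasmic reticulum, 7 were higher and 2 lower (median 0.32), and with library totals alone 5 and 5. Sec24d, a coat protein of vesicles that leave the endoplasmic reticulum, rose from 89.8, 83.0 and 84.6 CPM to 211, 200.0 and 139.7 CPM (log2 change 1.10). The erlins, which form a complex in the membrane, moved in opposite directions. Erlin1 went from 51.4, 48.5 and 53.4 CPM to 96.6, 94.8 and 85.4 CPM (0.85 ± 0.083), and Erlin2 from 121, 115 and 129 CPM to 61.6, 62.5 and 66.1 CPM (-0.94 ± 0.078), with adjusted p of 7.24e-06 and 2.67e-06 in edgeR.

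Of 19 genes of sterol efflux, oxysterols and intracellular sterol traffic, 2 were higher and 11 lower (median -0.32). Of all genes, 33.7% were higher and 35.1% lower. Nr1h3, which encodes the sterol-sensing receptor LXR alpha, fell 3.58-fold from 52.2, 54.2 and 46.2 CPM to 11.3, 15.6 and 15.9 CPM (-1.84 ± 0.13, adjusted p = 1.03e-06 in edgeR). Nr1h2, the gene of LXR beta, was more abundant, at 93.2, 90.3 and 86.7 CPM in controls and 82.4, 67.0 and 84.0 CPM under pressure. It did not pass (-0.21 ± 0.096, adjusted p = 0.0703 in edgeR). Cyp27a1, which makes an oxysterol, was low and changed by -1.77 on the log2 scale, to 1.12, 1.03 and 1.06 CPM. Lipa, the lysosomal lipase that frees cholesterol from lipoprotein, fell from 770.0, 671 and 738 CPM to 447, 524 and 419 CPM (-0.65). With library totals alone, 1 gene of this list was higher and 12 were lower, against 24.3% and 45.7% of all genes.

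Of 21 listed genes of fatty acid supply, elongation and desaturation, 19 could be tested (Mlxipl and Elovl7 had too few counts), and 8 were higher and 8 lower (median 0.021). Fads3, a member of the fatty acid desaturase family, went from 39.0, 37.1 and 39.0 CPM to 199, 182 and 170.2 CPM, a 4.8-fold rise (2.26 ± 0.086, adjusted p = 3.73e-08 in edgeR). Its family members Fads1 and Fads2 were lower (-0.57 and -0.35), as were Scd1 and Scd2. The acyl-CoA synthetases Acsl1 and Acsl4, which activate long fatty acids, rose by 1.19 and 1.35, and Acsl4 reached 323, 346 and 259 CPM from 128, 111 and 126 CPM. Acsl3 of the same family also rose (0.49), but Acsl5 fell from 282, 292 and 288 CPM to 182, 177 and 187 CPM (-0.66). Acss2, which makes acetyl-CoA from acetate, fell from 9.39, 9.97 and 9.65 CPM to 3.99, 4.01 and 3.60 CPM (-1.31).

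Of 21 genes of glycerolipid synthesis and storage, 6 were higher and 10 lower (median -0.33), against 33.7% and 35.1% of all genes. Lpin2, a paralog of Lpin1 and the more abundant of the pair, fell 2.83-fold from 286, 262 and 285 CPM to 102, 101 and 90.6 CPM (-1.50 ± 0.080). Plin3, a coat protein of lipid droplets, fell from 87.4, 83.7 and 81.5 CPM to 27.2, 28.8 and 31.2 CPM (-1.54). The acyltransferases that make phosphatidate went both ways, with Agpat5 at 1.19 and Agpat1 at -1.42. Of 13 tested genes of further sterol enzymes and isoprenoid branches, 6 were higher and 3 lower (median 0.14, and -0.073 with library totals alone). Pdss1, which makes the side chain of coenzyme Q, rose from 3.80, 3.20 and 3.70 CPM to 7.73, 6.81 and 8.19 CPM (1.08). Coq2, which attaches that chain, fell from 31.9, 35.3 and 32.2 CPM to 12.5, 14.6 and 19.7 CPM (-1.09). Fnta, a subunit shared by protein prenyltransferases, rose by 0.62, and Dhdds, a subunit of dolichol synthesis, changed by -0.96. The genes of their partner subunits did not follow them. Fntb changed by -0.77 and Pggt1b by 0.14 beside Fnta, and Nus1 rose by 0.39 beside Dhdds. Of the genes named from these lists, Lbr, Msmo1, Nr1h2 and Pggt1b did not pass, Mlxipl and Elovl7 were not tested, and the others passed an adjusted p of 0.05 in edgeR.

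**Figure D4:**
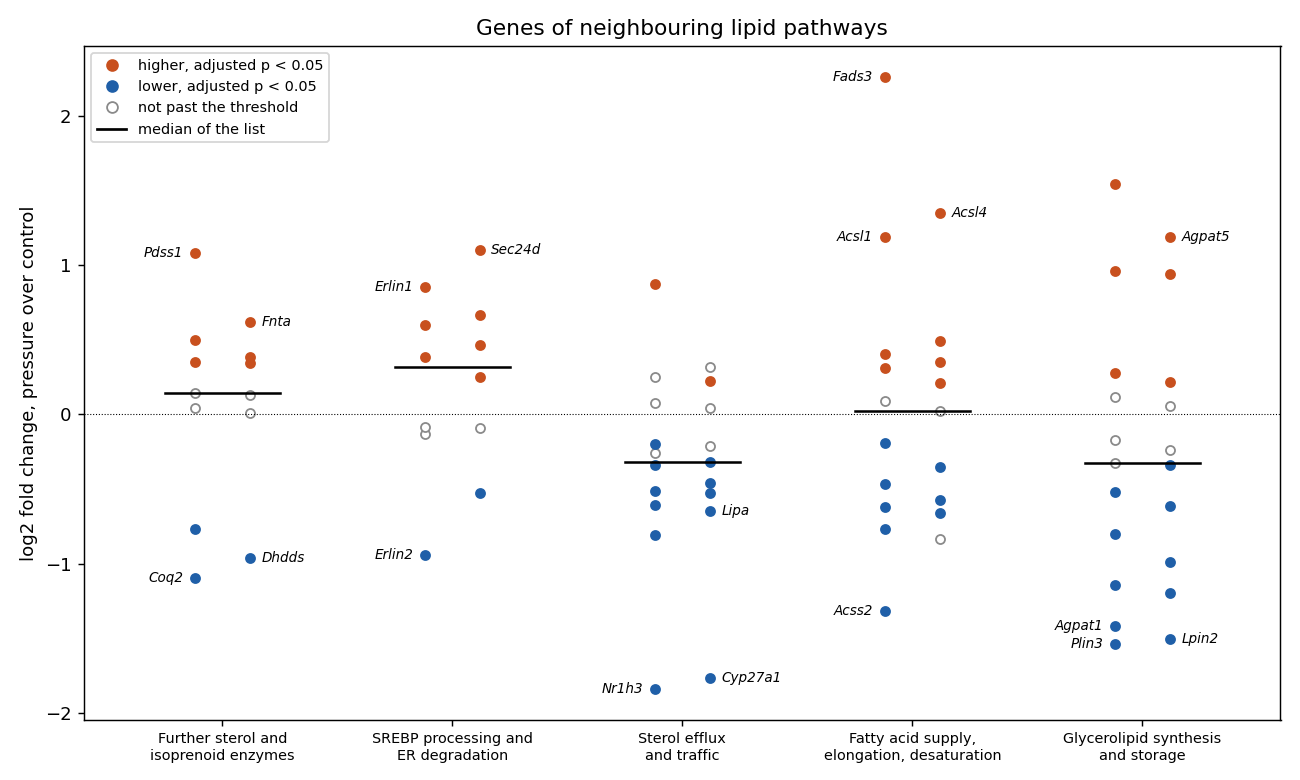
Log2 fold change, pressure over control, of every tested gene in 5 neighbouring lists, coloured by the call at an adjusted p of 0.05, with the list median as a line and some of the genes labelled. Fads3 at 2.26 was the highest of all, and Nr1h3 at -1.84 the lowest.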

How the data were processed

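Polyadenylated RNA of 6 samples (3 per group) was sequenced from a stranded mRNA kit in single-read mode, per the labels' protocols. The authors deposited expected counts per gene symbol, which are estimates and may be fractional. TopHat2 2.2.1, Cufflinks 2.2.1 and mm10 are named per the submitters' processing notes. Which tool counted the reads, with which strand setting and annotation, is not given in the sources used here, so reads of overlapping genes, or of near-identical copies, cannot be assigned with certainty. Fractional values were present for 11 of the 32 members.

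The counts were rounded and filtered with filterByExpr (minimum count 10, minimum total 15), which left 12892 genes with 99.94% of counts. TMM factors were 1.07 to 1.08 in controls and 0.909 to 0.946 under pressure. Groups follow the sample titles. The groups were compared with edgeR 4.0.16 (R 4.3.3), using its two-sided quasi-likelihood test and no covariate. P-values were adjusted by the Benjamini-Hochberg method over all genes tested, with a threshold of 0.05. Alternatives were DESeq2 1.42.0, limma-voom (3.58.1), other scalings, filters and thresholds, a block on the sample number, and each sample left out in turn. Ratios used counts plus 1. No libraries agreed within sampling noise (chi-square per degree of freedom at least 3.03 within a group).

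From each neighbouring list, up to 4 genes past the threshold with the smallest p were selected. Fads1, Fads2, Acsl3, Acsl5, Nr1h2, Fntb, Pggt1b and Nus1 were added after their values were seen. The members, the lists and the rules were chosen with earlier results of these data known. Some genes of these pathways, among them some so selected, are not reported here. Gene positions and exonic lengths came from GENCODE M21, and promoters from RefSeq.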

Additional observations from a re-analysis of the deposited data

How the results depend on the processing

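Of the 19 calls among the members, 6 held in every one of 16 alternatives that tested the gene, 11 were lost only in the test against a 1.5-fold change, Idi1 was lost there and with library totals alone, and Acat2 was lost in 14. The test against 1.5-fold left 1744 genes higher and 2197 lower over all 12892 genes, and 2 members higher and 4 lower. DESeq2 and limma-voom each gave 7 members higher and 11 lower. Over all 12892 genes, DESeq2 gave 4353 higher and 4248 lower, and limma-voom 4312 and 4566. RLE factors gave 8 members higher and 11 lower (4489 and 4392 of 12892 genes). Without a low-count filter 8 members were higher and 11 lower (4541 and 4737 of 17805 genes). A minimum mean of 5 CPM gave 6 and 10 of 30 tested members (3561 and 3688 of 10118 genes). Leaving out each sample in turn gave 7 to 12 members higher and 11 to 14 lower, and both high ends came from leaving out pressure replicate 3. Over all genes, the same settings gave 3887 to 4780 higher and 4094 to 4966 lower, of 13054 to 13125 tested. Changes near 0 had no fixed sign. With upper-quartile factors the log2 changes of Srebf2, Insig1 and Msmo1 turned to -0.015, -0.016 and -0.0708. With library totals alone, Hmgcs1, Srebf2, Insig1, Acaca, Msmo1 and Lbr turned to -0.025, -0.11, -0.12, -0.0065, -0.17 and -0.086. With each sample left out in turn, Mvk ranged from -0.27 to 0.026, Srebf1 from -0.095 to 0.019, Lss from -0.12 to 0.053, Acly from -0.19 to 0.020 and Msmo1 from -0.00753 to 0.074. The replicate block, with the sample number as a term, gave 8 members higher and 11 lower (4069 and 4315 over all genes). Acat2 was lost (adjusted p = 0.093 in edgeR) and Fasn passed (0.0409). Deviations of same-numbered samples from their group means correlated at 0.129, -0.230 and -0.134. With 3 samples per group, these values cannot settle whether equal numbers share an animal or a day. At the lowest depth, 3 counts correspond to 0.246 CPM, which is the level of Tm7sf2 in pressure replicate 3, and its fold change had the largest standard error of the members.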
